A study of Solanum tuberosum with 5 samples.

Results

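The falling tags are 108 short sequence tags of potato plantlet RNA whose level at day 5 stood at 1/6 or less of day 0, both in plantlets kept in long days and in plantlets moved to short days. They were chosen from their measured values. A tag had to be listed in all 5 libraries with 10 TPM or more in at least 1, and, with 1 TPM added to every value, to stand at 1/6 or less of day 0 in both day 5 libraries. TPM is the authors' heading for tags per 1000000 tags of the library, with no division by transcript length. Of 27553 distinct tags in the series, 8910 were listed in all 5 libraries and 6208 of these reached 10 TPM, so the falling tags are 1.74% of the tags compared. In long days 188 tags met the limit by day 5, or 3.03% of those compared, and in short days 253 did, or 4.08%. The 108 tags are 57.4% of the first list and 42.7% of the second, and both lists share the day 0 library.

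All plantlets were of 1 potato genotype with the label E26 and spent 3 weeks in long days (LD). Some then stayed in LD and the others went to short days (SD). Sampling took place before the transfer (day 0) and 2 and 5 days after it, and the later groups are called LD2, LD5, SD2 and SD5 after photoperiod and day. Each group is 1 library of polyadenylated RNA, with no replicates. Each library rests on 3492458 to 3688118 tags, so that 10 TPM stands for 34.9 to 36.9 counted tags. Whole plantlets were profiled, so fewer cells of a type and less RNA per cell cannot be told apart, and neither can a group and its single library.

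Day length is the main environmental signal for tuber formation in potato, and short days favour it. The leaf perceives the photoperiod through the circadian clock and phytochrome. Under inductive days it exports a mobile protein of the FLOWERING LOCUS T family, named SP6A in potato, to the stolon tip, where swelling begins. In LD this signal is held down by a pathway that includes the potato CONSTANS-like proteins. Gene names for the tags are not in hand, as the files give tags alone and no potato transcript sequence was used here, so none of the falling tags can be placed in that pathway. They are called F1 to F108, in falling order of their day 0 value.

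The letters at the far end of a tag differed between the libraries, and the falling tags were not an even sample of them. Each tag is 21 bases long and starts at the recognition site of the enzyme NlaIII. In libraries of this kind a second enzyme cuts the tag out at its other end, and an adapter is joined there. Of the 108 falling tags, 88 ended in A, or 81.5%, against 30.1% of the 6208 tags compared. A further 9 ended in C, 6 in T and 5 in G. By the last 2 bases, 48 falling tags ended in AA, which is 8.01 of every 100 such tags, while 1 ended in TT, which is 0.142 of every 100. The base at position 20 was T in 12.04% of the falling tags and in 31.6% of all tags. At positions 5 to 19 the largest departure from all tags was 16.3 percentage points, against 51.3 points for A at position 21. It lay at position 5, next to the enzyme site, where 27.8% of the falling tags and 44.1% of all tags had A. At position 7, 38.0% had G, against 23.4% of all tags. Departures were thus not confined to the far end, and scaling by end bases does not cover these positions. Mean GC content after the enzyme site was 38.3% ± 13.1 (SD over tags, n = 108), against 36.8% ± 11.8 over the 6208 tags.

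The same letters set the libraries apart over all listed tags. Tags ending in A held 36.5% of the listed TPM in SD2 and 33.5% at day 0. They held 26.01% in LD2, 22.0% in SD5 and 21.5% in LD5. Tags ending in T took nearly the reverse order, with 22.1% in SD2, 28.5% at day 0, 36.2% in LD2, 39.1% in LD5 and 42.3% in SD5. With the falling tags left out, the share ending in A was still 35.8% in SD2, 32.4% at day 0, 25.6% in LD2, 21.9% in SD5 and 21.4% in LD5. Day 0 and SD2, in which the falling tags were high, are thus the libraries in which tags ending in A were high in general. With 1 library per group, a difference in end bases between libraries and a difference in time or photoperiod cannot be told apart. The counts and medians of day 2 are therefore given below a second time, with the median of each class of end bases taken out.

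**Figure D1:**
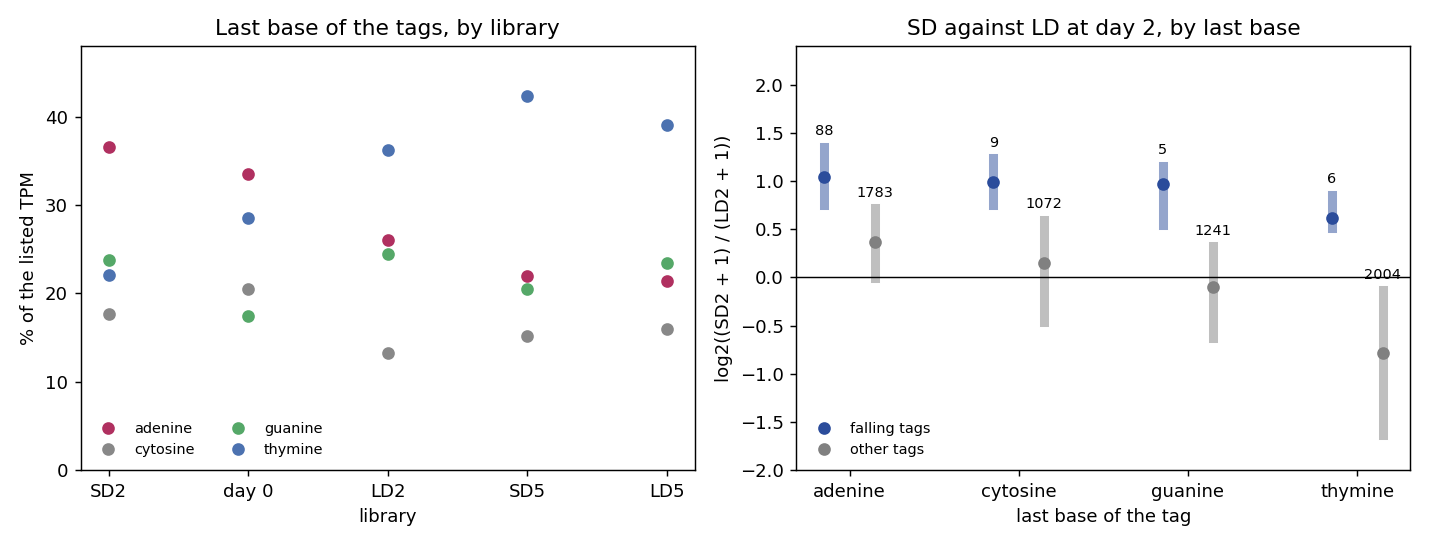
Last base of the tags. Left, the percent of the listed TPM (y axis) in tags with each last base, by library (x axis), with the libraries ordered by the share ending in adenine, from 36.5% in SD2 to 21.5% in LD5. Right, log2((SD2 + 1)/(LD2 + 1)) (y axis) by last base (x axis), as median (point) and quartiles (bar) for falling tags and for all other tags compared, with the number of tags above each bar; the medians of the other tags run from 0.37 for adenine to -0.78 for thymine, and those of the falling tags from 1.04 to 0.62.

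As a set, the falling tags took up 1.48% of the day 0 library (exact 95% binomial interval 1.47 to 1.49, counting error only). Their sum was 0.422% in LD2 (0.416 to 0.429) and 0.136% in LD5 (0.133 to 0.140). In short days it was 0.940% in SD2 (0.9296 to 0.9498) and 0.143% in SD5 (0.139 to 0.147). The sum was highest at day 0, SD2 stood between it and LD2, and both day 5 libraries lay close together at the bottom. The share of the library lost by day 5 was 1.34 percentage points in LD and 1.34 in SD. By the choice of the tags, the direction of this loss is fixed. The limit also holds its size to a narrow range in both LD and SD, so it is a description.

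**Figure D2:**
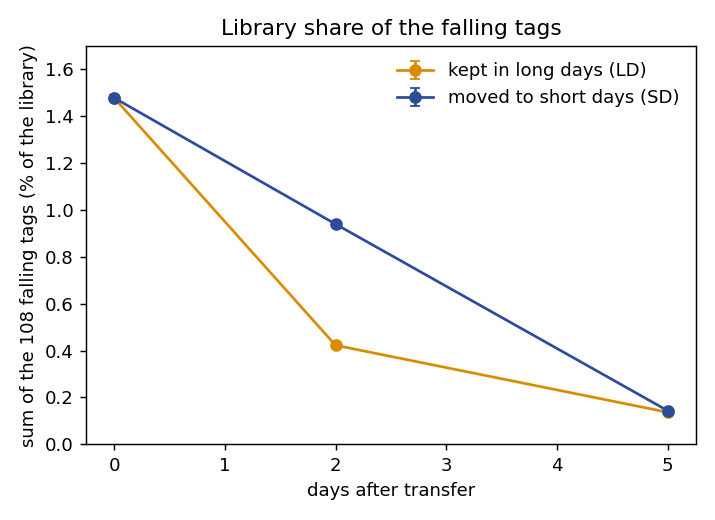
Sum of the 108 falling tags as a percent of all tags of the library (y axis) against days after transfer (x axis), for plantlets kept in long days and plantlets moved to short days, which share the day 0 library; bars are exact 95% binomial intervals of the counts and mostly lie within the points. The lines part at day 2, at 0.422% in LD and 0.940% in SD. They lie close together at day 5, at 0.136% and 0.143%, where the choice of the tags holds both low. The sums are not scaled by end bases.

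The pace of this loss differed between the LD and SD libraries of day 2, which the limit did not use. By LD2 the sum had made 78.7% of its way to the LD5 level, and by SD2 40.4% of its way to the SD5 level. These shares are computed in part from the day 0 and day 5 values that chose the tags, so they restate the day 2 sums. The sum was 2.22 times as high in SD2 as in LD2 (interval 2.18 to 2.27). At day 5 the ratio was 1.05 (interval 1.01 to 1.09), a closeness that the common limit favours. Without F1 and F7, left out after their values were seen, the ratio at day 2 was 2.09 (interval 2.05 to 2.13). The 10 most abundant falling tags made up 45.6% of the day 0 sum. They kept 22.8% of their day 0 sum in LD2 and 53.6% in SD2, and the other 98 kept 33.4% and 71.9%.

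Tag by tag, the fall was well under way in LD after 2 days. In LD2, 83 of the 108 tags (76.9%) stood at 1/2 or less of day 0, against 12.8% of all tags compared. The limit of 1/6 was already met there by 7 tags, F1, F3, F7, F13, F23, F27 and F52, against 0.354% of all tags. Only F76 stood above day 0 in LD2, while 54.9% of all tags stood at or above it. The median log2 ratio of LD2 to day 0 was -1.52 (quartiles -1.90 and -1.10), against 0.11 over all tags. Since the tags were chosen as high at day 0, ratios to day 0 lean downward by the choice.

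In SD2 the falling tags lay within 2-fold of day 0 about as often as all tags did, with 85 of 108 (78.7%) against 78.6%. In LD2 24 of them (22.2%) did, against 67.6% of all tags. In SD2, 23 of 108 tags (21.3%) stood at 1/2 or less of day 0, against 13.2% of all tags. The limit of 1/6 was met by F3 and F23, against 0.177% of all tags. In SD2, 19 falling tags stood at or above day 0, against 45.8% of all tags. The median log2 ratio of SD2 to day 0 was -0.39 (quartiles -0.86 and -0.12), against -0.08 over all tags. Every tag that had come down to 1/2 in SD2 had also done so in LD2. A further 60 tags had come down to 1/2 in LD2 alone, 0 in SD2 alone, and 25 in neither. Over all 6208 tags, 522 were down to 1/2 in LD2 alone and 549 in SD2 alone.

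**Figure D3:**
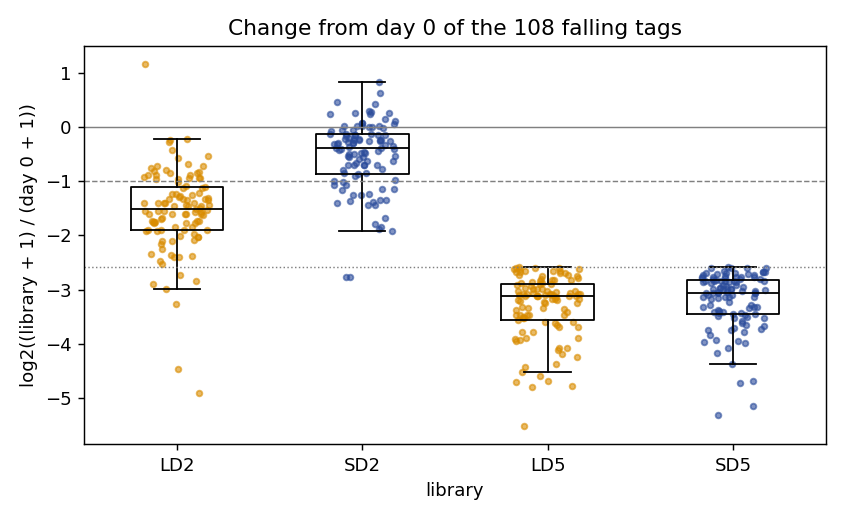
Change from day 0, as log2((library + 1)/(day 0 + 1)) (y axis), of each of the 108 falling tags (points) in the other 4 libraries (x axis); boxes give median and quartiles, whiskers reach up to 1.5 times the box height, and the solid, dashed and dotted lines mark day 0, 1/2 of day 0 and 1/6 of day 0. Medians are -1.52 in LD2, -0.39 in SD2, -3.12 in LD5 and -3.06 in SD5; both day 5 libraries lie under the dotted line by the choice of the tags.

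Measured along each tag's own way from day 0 to day 5 on the log2 scale, the median tag had covered 46.1% by LD2 (quartiles 34.4% and 57.6%). By SD2 it had covered 12.4% (quartiles 3.88% and 26.3%). In LD, 44 tags were past the midpoint and 4 had covered under 10%, while in SD 6 were past it and 48 had covered under 10%. These parts are computed from the day 0 and day 5 values that chose the tags, so they restate the day 2 levels and add nothing to them. From day 2 to day 5 the median log2 ratio was -2.68 in SD and -1.73 in LD, against -0.06 and 0.04 over all tags. All 108 tags were lower in SD5 than in SD2, against 52.1% of all tags, and 104 were lower in LD5 than in LD2, against 47.5%. The low day 5 value is part of the choice, so nothing is read from these counts. The exceptions in LD were F3, F13, F23 and F52, which were lower in LD2 than in LD5.

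The direct comparison of the photoperiods at day 2 used neither day 0 nor day 5 values, though these chose the tags. The floor of 10 TPM could be met in any library, and F108 met it only in SD2, at 10.3 TPM. Its place among the tags higher in SD2 is thus partly set by the choice, and it was not called. Without a floor the rule took in the same 108 tags. A tag was called when the log2 ratio with 1 TPM added was at least 1 in size, the higher value was 10 TPM or more and 1 lay outside the exact 95% interval that counting error gives the ratio. In SD2, 49 of the 108 falling tags (45.4%) were called above LD2 and 0 below. Over all tags compared 6.46% were called above and 17.5% below. The median log2 ratio of SD to LD was 0.98 in the falling tags and -0.04 over all tags, and 103 falling tags lay above 0, against 48.2% of all tags. The counting interval of the ratio lay above 1 in 98 tags and below 1 in 2, and it held 1 in the other 8. Log2 ratios of 2 or more were seen in 6 of the 108 falling tags, against 0.37% of all tags. These values hold for tags listed in all 5 libraries. Of the tags at 10 TPM or more at day 0 that neither day 5 library listed, 224 were listed in both day 2 libraries. Among those, 4.02% were called SD above LD and 20.1% below, with a median log2 ratio of -0.05. With unlisted values set to 0, which took in only tags listed at day 0, 1492 tags met the rule. Of these, 351 were called above and 229 below, with a median of 0.00. Tags unlisted in both day 2 libraries have a ratio of 0 there by construction. They include 594 tags at 10 TPM or more at day 0 that no later library listed, so this median does not measure the difference between SD and LD. The median over all tags was 0.00 in that setting too, and their share called was not computed. Each value is 1 library, so no p-value was computed and the difference from the other tags was not tested.

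**Figure D4:**
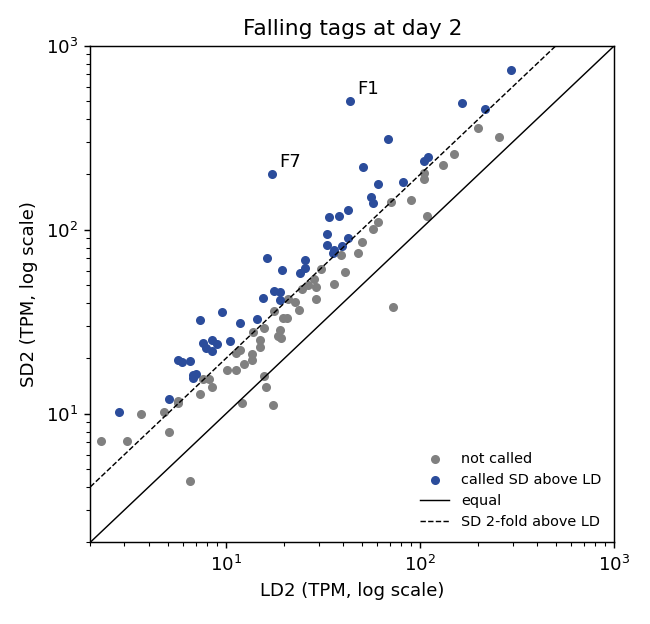
TPM of each falling tag in SD2 (y axis, log scale) against LD2 (x axis, log scale), with tags called SD above LD in blue and the others in grey; the solid line marks equal values and the dashed line SD 2-fold above LD. Of 108 points 103 lie above the solid line, 49 are called, and F1 and F7 stand farthest from it.

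This ratio varied little with the starting level. The 36 tags with the highest day 0 values, 100.06 to 984.5 TPM, had a median log2 ratio of SD2 to LD2 of 1.07, with 20 called. In the middle 36 tags it was 0.97 with 16 called. In the lowest 36, at 8.46 to 33.0 TPM on day 0, it was 0.93 with 13 called. By LD2 the highest 36 were the farthest down, with a median log2 ratio to day 0 of -1.81, against -1.42 and -1.34 in the middle and lowest.

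The end bases moved with the day 2 comparison. Among tags outside the falling set, 11.6% of the 1783 ending in A were called SD above LD and 3.76% SD below. Of the 2004 ending in T, 1.35% were called above and 36.5% below. Their median log2 ratios were 0.37 for A, 0.15 for C, -0.10 for G and -0.78 for T. Within the class ending in A, 44 of the 88 falling tags were called SD above LD, with a median log2 ratio of 1.04, and 86 lay above 0, against 74.6% of the other tags in that class. That class is mixed. Called above were 27 of the 48 falling tags ending in AA and 11 of 21 in CA, against 20.1% and 16.3% of the others. For TA it was 5 of 6 and for GA 1 of 13, against 5.68% and 3.57%. Of the 20 falling tags that did not end in A, 5 were called above, against 3.38% of the other tags not ending in A. Their median was 0.89, and 17 lay above 0, against 36.1% of those other tags. Down to 1/2 of day 0 in LD2 were 68 of the 88 falling tags ending in A and 15 of the 20 others, against 15.3% and 10.1% of the tags outside the set. In SD2 14 of the 88 and 9 of the 20 were down to 1/2, against 3.65% and 17.0%. The gap between LD2 and SD2 in this count was thus smaller in the 20 tags that did not end in A, a difference that was not tested.

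With the median log2 ratio to day 0 of each class of last 2 bases taken out, chosen after seeing the data, the values were smaller. Of the 108 falling tags, 31 still met the limit in both day 5 libraries, 6 of F1 to F10 among them. Of those 31, 12 did not end in A. For the 108 tags as chosen, the median log2 ratio to day 0 was then -1.12 in LD2 and -0.52 in SD2, against 0.11 and -0.08 over all tags. At 1/2 or less of day 0 were 59 of them in LD2 and 27 in SD2, against 9.10% and 9.17% of all tags under the same scaling. In SD2, 19 of them (17.6%) were called above LD2 and 1 below, against 4.46% and 12.2% of all tags under the same scaling. Their median log2 ratio of SD to LD was 0.46, against -0.15 over all tags. After scaling 89 of the 108 lay above 0, against 103 before it, so that 19 in place of 5 stood at or below 0. Applied to the scaled values, the rule itself picked 42 tags, 45.2% of them ending in A. Of these, 15 were called SD above LD at day 2 and 0 below, with a median log2 ratio of 0.69. The median ratio of SD2 to LD2 thus stayed above 0 in both sets after scaling, at less than its unscaled size.

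The 104 tags that rose 6-fold or more by day 5 in both photoperiods give the opposite case. There, 65.4% ended in T and 8.65% in A, against 32.4% and 30.1% of all tags compared. In SD2, 74 of them (71.2%) were called below LD2 and 0 above, against 17.5% and 6.46% of all tags. Their median log2 ratio was -2.29. Of the 104, 51 ended in TT. Among all tags of that class outside the falling set, rising tags included, 63.3% were called below, with a median of -1.73. No scaled values were computed for the rising tags. With 1 library per group, the difference between the rising and the falling tags was not tested.

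The most abundant falling tags show how varied the course was. F1 had 984.5 TPM at day 0, 43.4 in LD2, 36.9 in LD5, 499.2 in SD2 and 155.2 in SD5. It had come down 22.7-fold in LD2 and 1.97-fold in SD2, and SD was 11.5 times LD at day 2 (interval 9.74 to 13.6). At day 5 SD was still 4.21 times LD (interval 3.48 to 5.12). F1 ended in AG, a class whose median log2 ratio of SD2 to LD2 was 0.11, and after scaling by the last 2 bases its own ratio was 3.33.

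F7 took the same course at a lower level. Its values were 544.8 TPM at day 0, 17.2 in LD2, 10.8 in LD5, 201.3 in SD2 and 64.7 in SD5. SD was 11.7 times LD at day 2 (interval 8.999 to 15.5) and 5.96 times LD at day 5 (interval 4.25 to 8.57), and the scaled log2 ratio at day 2 was 2.90. F1 and F7 stood apart from the other members, whose next highest ratio at day 2 was 4.58.

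F2 and F10 were close to day 0 in SD2. F2 had 854.6 TPM at day 0, 293.9 in LD2, 100.6 in LD5, 739.3 in SD2 and 84.8 in SD5. For F10 the values were 482.0, 163.9, 25.5, 489.5 and 25.8 TPM in the same order. SD was 2.52 times LD for F2 (interval 2.34 to 2.71) and 2.99 times LD for F10 (interval 2.72 to 3.29) at day 2. F9 was similar at day 2, with 524.5 TPM at day 0, 216.6 in LD2, 44.7 in LD5, 453.6 in SD2 and 19.5 in SD5. At day 5, however, F9 was called lower in SD, at 0.435 times LD (interval 0.323 to 0.581). Scaled by the last 2 bases, the log2 ratio of SD2 to LD2 was 0.49 for F2, 1.00 for F10 and 0.67 for F9.

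F3 was down early in both photoperiods. It had 811.7 TPM at day 0, 108.3 in LD2, 133.4 in LD5, 118.3 in SD2 and 65.6 in SD5. SD was 1.09 times LD at day 2 (interval 0.949 to 1.26), an interval that holds 1, and 0.492 times LD at day 5 (interval 0.418 to 0.576). Scaled by the last 2 bases, its log2 ratio at day 2 turned to -0.57. F5 differed little between photoperiods at day 2, with 675.3 TPM at day 0, 255.2 in LD2, 77.3 in LD5, 320.8 in SD2 and 42.4 in SD5. Its ratio at day 2 was 1.26 (interval 1.15 to 1.37), short of a call, and its scaled log2 ratio was -0.06.

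The other abundant tags, F4, F6 and F8, stood between these courses. F4 had 745.2 TPM at day 0, 198.8 in LD2, 104.4 in LD5, 356.1 in SD2 and 101.4 in SD5. F6 had 571.0, 132.0, 66.4, 224.7 and 78.5 TPM in the same order, and F8 had 543.1, 104.6, 20.1, 205.0 and 34.4 TPM. All 3 were at 1/2 or less of day 0 in both day 2 libraries. Their day 2 ratios of SD to LD were 1.79, 1.702 and 1.96, none of them a call, and their scaled log2 ratios were 0.45, 0.38 and 0.39.

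**Figure D5:**
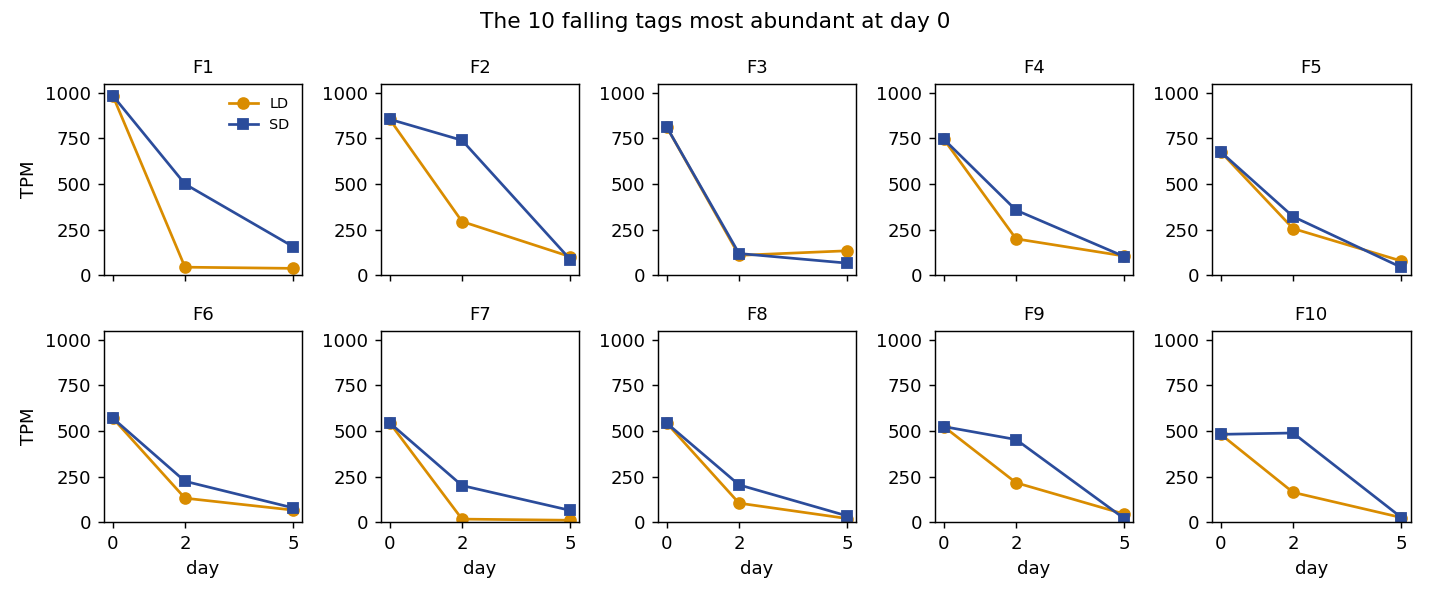
TPM (y axis, common scale from 0) against day (x axis) of F1 to F10, the falling tags with the highest day 0 values; circles are plantlets kept in long days, squares plantlets moved to short days, and both lines start at the shared day 0 library. Each point is 1 library. In all 10 panels the SD point lies above the LD point at day 2, by 1.09 times in F3 to 11.7 times in F7; scaled by the last 2 bases, F3 and F5 lie below it, at log2 ratios of -0.57 and -0.06.

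Below F1 and F7, the highest ratios of SD to LD at day 2 were those of F12, F66, F20 and F39. F12 had 363.6 TPM at day 0, 68.5 in LD2, 30.9 in LD5, 313.6 in SD2 and 53.8 in SD5, a ratio of 4.58 (interval 3.98 to 5.28). F20 had 229.4, 50.8, 20.6, 220.1 and 14.0 TPM in the same order, a ratio of 4.34 (interval 3.68 to 5.13). All of them were within 1.30-fold of day 0 in SD2. F39 had 91.0 TPM at day 0, 16.4 in LD2, 3.25 in LD5, 70.1 in SD2 and 10.02 in SD5, a ratio of 4.29 (interval 3.21 to 5.81). F66 had 38.6, 7.33, 5.42, 32.5 and 5.15 TPM, a ratio of 4.43 (interval 2.88 to 7.07). Scaled by the last 2 bases, the log2 ratios of these 4 tags were between 1.25 and 1.61.

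At the other end, 5 tags were lower in SD2 than in LD2, and none of them was called before scaling by end bases. F76 had 31.6 TPM at day 0, 72.2 in LD2, 4.34 in LD5, 38.2 in SD2 and 2.00 in SD5. It peaked in LD2 before it came down, and SD stood at 0.529 times LD (interval 0.426 to 0.655). F93 had 20.9, 17.5, 1.63, 11.1 and 2.58 TPM in the same library order, a ratio of 0.636 (interval 0.415 to 0.964). For F101, F56 and F60 the ratios were 0.659, 0.869 and 0.940, with intervals that held 1. F99 followed at 1.01, with 15.8 TPM in LD2 and 15.97 in SD2. Scaled by the last 2 bases, the log2 ratios of F76, F93, F101, F56, F60 and F99 were -1.29, -0.34, -0.06, 0.34, -0.65 and -0.77. Under that scaling F76 was the 1 tag of the 108 called below.

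The deepest falls over both day 5 libraries were those of F64, F8, F15 and F7. F64 went from 40.9 TPM at day 0 to 0.81 in LD5 and 0.57 in SD5, which rest on 3 and 2 tags. It was at 7.05 TPM in LD2 and 16.5 in SD2, a ratio of 2.35 (interval 1.44 to 3.91). F15 had 307.8 TPM at day 0, 105.2 in LD2, 26.8 in LD5, 188.5 in SD2 and 7.73 in SD5. At day 5 F15 stood at 0.288 times LD in SD (interval 0.181 to 0.445). Day 5 values were low throughout, with 35 of the 108 tags resting on fewer than 10 counted tags in LD5 and 35 in SD5.

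By day 5 the photoperiods had converged for most of the falling tags, a match that the common limit favours. Called SD above LD were 4 tags, F1, F7, F34 and F39, against 2.37% of all tags, and called below were 4 tags, F3, F9, F11 and F15, against 6.81%. The median log2 ratio of SD5 to LD5 was 0.05. Of the 49 tags called at day 2, 3 were also called SD above LD at day 5 and 1 was called below. Since both libraries served to choose the tags, nothing is read from these counts.

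Close to the limit the values ran on without a gap. With 1 TPM added to both values, the members nearest to it were F83, F108 and F74, whose higher day 5 value stood at 0.167, 0.166 and 0.166 of day 0. The nearest tags outside it stood at 0.167, 0.167 and 0.168 by the same measure. F108, the member with the lowest day 0 value, had 8.46 TPM at day 0, 4.79 in LD2, 0.54 in LD5, 10.3 in SD2 and 0.57 in SD5, and both day 5 values rest on 2 tags. Without the added 1 TPM it was 15.7-fold below day 0 in LD5 and 14.8-fold in SD5, so it is near the limit through that addition. The first tag outside the limit had 32.4 TPM at day 0, 2.71 in LD5 and 4.58 in SD5.

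Few of the falling tags resembled one another in their letters. The closest pair, F29 and F42, differed at 3 positions. Another listed tag lay 1 letter away from 2 of the 108 (1.85%), against 2.37% of all tags compared. In the common order of the files 3 pairs of falling tags stood next to each other.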

How the data were processed

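Per the labels' protocols, the kit behind the tag libraries was Illumina's Gene Expression Sample Prep Kit. The deposited values, headed TPM per the file headers, give each tag's number per 1000000 counted tags, an RPM unit. For the aligner, reference, build and tag filters nothing was given in the sources used here. Values were whole multiples of 1 step per library within 0.006 TPM for at least 99.98% of tags, except 2 tags of LD5 and 3 of SD2. This gave the counted tags behind each value, and the lowest value was 2 tags in every library. The listed values summed to 50.9% to 59.7% of a library. A tag missing from a library was not compared.

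Ratios are of deposited values, and log2 ratios have 1 TPM added. The 95% intervals are Clopper-Pearson intervals of the counted tags, conditional on their sum for a ratio (scipy 1.17.1). Copies made by PCR could not be told from separate molecules, so that the intervals hold counting error and nothing else. No count model was fitted, since there is 1 library per group. On simulated data for SD against LD at day 2 with 6208 tags, calls were made for 2% of 50 tags changed 1.5-fold, 92% of 50 changed 2.5-fold, 100% of 50 changed 4-fold, 100% of 50 changed 8-fold and 1 of 6008 tags left as they were. The simulated counts held counting error alone, and only the more abundant tags were changed. These shares therefore do not give the rate of false calls between real libraries or for scarce tags. For scaling by end bases, the median log2 ratio to day 0 of each class of tags with the same last base, or last 2 bases, was taken out and the median of all tags kept.

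Tags were named as F1 to F10 (highest at day 0), the 6 highest and 6 lowest SD to LD ratios at day 2, the 4 deepest mean falls and the 3 nearest on each side of the limit. F11, F13, F23, F27, F29, F31, F34, F42, F47, F52, F63 and F106 were named after their values were seen. The falling tags, the lists and the tests were chosen with earlier results of these data known.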

Additional observations from a re-analysis of the deposited data

Results flagged for a closer look

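The values of 18 falling tags (16.7%) stood above day 0 in SD2 and below it in LD2, as did 13.6% of all tags compared. The counting interval of the ratio of SD2 to day 0 held 1 in 14 of the 18 and lay above 1 in F31, F47, F63 and F106, or 3.70% of the falling tags, against 4.41% of all tags. The difference was not tested, since each group is 1 library.

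Signal lay outside the tags compared. Of 7733 tags at 10 TPM or more at day 0, 3077 were not listed in at least 1 other library, and 1221 were listed in neither day 5 library. Both day 2 libraries listed 224 of these 1221. In those 224, 30 stood at 1/2 or less of day 0 in LD2 and 29 in SD2, against 12.8% and 13.2% of all tags compared. Of the 224, 9 (4.02%) were called SD above LD at day 2 and 45 (20.1%) below, with a median log2 ratio of -0.05. These shares are near those of all tags compared, 6.46% and 17.5%, and unlike those of the 108 falling tags.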

How the results depend on the processing

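Leaving out a replicate was not possible, and no paired analysis was possible because each group has 1 library. In every setting below other than unlisted values set to 0, the median log2 ratio of SD2 to LD2 stayed above 0. Calls of SD below LD were 0, apart from 2 with a limit of 1/4 and 229 with unlisted values set to 0. An alternative count was taken as near the main value when within 1.5 times of it. For a share lost, the margin was 1/2 the width of the counting interval of the day 0 share. For the median it was 1/2 the log2 width of the counting interval of the summed SD2 to LD2 ratio. Neither margin is an interval of the share lost or of the median itself. Of 112 alternative values, 41 were near by these margins and 71 were not. Those 71 follow, with some of the 41 beside them. The share of the library lost is given for LD and then SD at day 5, in percentage points, and the median is that log2 ratio. It was 1.40 and 1.38 with TMM factors (median 1.02) and 1.47 and 1.45 with median-of-ratios factors (median 1.07). Rescaled to the listed tags, 169 tags met the rule. Of these, 132 were at 1/2 of day 0 in LD2 and 29 in SD2, and 103 were called SD above LD (lost 3.00 and 3.01, median 1.14). These factors shift all tags, whose median was -0.01 with TMM, 0.07 with median-of-ratios and 0.10 when rescaled, against -0.04 before. The median of the falling tags less that of all tags was 1.02, 1.01 and 1.04 in that order, against 1.02 before. A pseudocount of 0.1 gave 160 tags, of which 78 (48.75%) were called above, against 45.4% before (lost 1.46 and 1.45). A pseudocount of 5 left 37 tags, with 32 at 1/2 in LD, 10 at 1/2 in SD and 21 called above (lost 0.995 and 0.984, median 1.12). A floor of 50 TPM left 59 tags, with 48 at 1/2 in LD, 17 in SD and 27 called above (lost 1.22 and 1.22, median 1.05). A limit of 1/4 gave 283 tags, with 195 at 1/2 in LD, 62 in SD and 109 called above (lost 2.66 and 2.65, median 0.87). A limit of 1/10 left 19 tags, with 16 at 1/2 in LD, 4 in SD and 12 called above (lost 0.361 and 0.363, median 1.14). Unlisted values set to 0 gave 1492 tags, with 1076 at 1/2 in LD, 880 in SD and 351 called above (lost 9.18 and 9.17, median 0.00), since every tag unlisted in both day 5 libraries can then meet the rule. Tags unlisted in both day 2 libraries enter that median as 0. With other factors, pseudocounts or floors, or unlisted values set to 0, the share of all tags called was not computed. A changed limit leaves that share at 6.46% above and 17.5% below. The remaining settings were chosen after seeing the data. With 10 or more counted tags in both day 5 libraries there were 64 tags. Of these, 52 were at 1/2 in LD, 18 in SD, and 31 were called above (lost 1.24 and 1.23). Without F1 and F7 the share lost was 1.19 and 1.20. Scaled by the last base, 60 tags met the rule, with 45 at 1/2 in LD, 20 in SD and 20 called above (lost 0.798 and 0.805, median 0.69). Scaled by the last 2 bases, there were 42 tags, with 31 at 1/2 in LD, 11 in SD and 15 called above (lost 0.834 and 0.822, median 0.69). Over all tags, 4.96% were called above when scaled by the last base and 4.46% when scaled by the last 2 bases. Depth limits the day 5 values, of which 35 in each library rest on fewer than 10 counted tags.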

Other observations

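The class of last 2 bases with the highest share of falling tags was AA, with 48 of 599 tags, followed by CA with 21 of 347 and GA with 13 of 461. The class TT held 51 of the 104 rising tags and 1 falling tag. Over all tags of each class, the median log2 ratio to day 0 in LD5 was -1.05 for AA and 1.29 for TT, and in SD5 it was -0.86 and 1.47. In the day 2 libraries the medians of AA were -0.50 in LD and 0.10 in SD, and those of TT were 1.07 in LD and -0.60 in SD. Outside the falling set, 21.2% of the tags ending in AA stood at 1/2 or less of day 0 in LD2 and 3.09% in SD2. Among tags ending in TT these shares were 1.84% and 33.2%.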
